A study of Homo sapiens with 2 samples.

Results

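Antisense long non-coding RNA genes are transcribed from the strand opposite a named gene and carry that gene's symbol with the suffix -AS1, -AS2 or -AS3. They were followed in KYSE30 cells, an established line of esophageal squamous cell carcinoma, in 2 RNA-seq libraries. The RHCG library came from stable transfectants of a vector expressing human RHCG, an ammonia transporter of the Rhesus glycoprotein family, and the mock library from stable transfectants of pIRES2-EGFP. Whether each was 1 clone or a pool was not stated. RNA was total RNA with ribosomal RNA removed, with 1 library per group, so no test between the groups was possible and every difference compares these 2 libraries only. Members were the genes in both tables whose Entrez identifier maps to a symbol with one of the suffixes and whose value was above 0 in at least 1 table. There were 203 of them among 1135 such antisense genes in the tables and among 12857 listed genes of any kind; 197 end in -AS1, 6 in -AS2 and 0 in -AS3. The members were thus chosen by their own RPKM values being above 0 in either library, and their levels are given as a description.

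Some antisense RNAs act near their own site of transcription, on the chromatin or the transcription of the neighbouring gene, and others pair with the sense transcript or bind microRNAs or proteins elsewhere. Many start close to the start of a protein-coding gene and run away from it, others lie across its exons or introns, and the nuclear RNA exosome degrades a large share of such transcripts. In squamous carcinoma and other tumours several of them, among them AFAP1-AS1, FOXD2-AS1 and TTN-AS1, have been studied as markers. Reads of an antisense gene and its sense gene can be told apart only where the sequencing keeps the strand and the counting uses it. Whether that was done here is not stated, so wherever exons overlap, both rows can hold the same reads.

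The overlap is shown on 2 members at different ends of the log2 ratios, MED4-AS1 and AGAP2-AS1. Each stretch lies in 1 exon of the antisense transcript (GENCODE release 29, GRCh38), and the capitals mark the bases opposite coding exons of the sense gene. The MED4-AS1 stretch is chr13:48077142-48077351 on the plus strand, with 170 of 210 bases in capitals. The AGAP2-AS1 stretch is chr12:57726965-57727254 on the plus strand, with 256 of 290 bases in capitals.
MED4-AS1: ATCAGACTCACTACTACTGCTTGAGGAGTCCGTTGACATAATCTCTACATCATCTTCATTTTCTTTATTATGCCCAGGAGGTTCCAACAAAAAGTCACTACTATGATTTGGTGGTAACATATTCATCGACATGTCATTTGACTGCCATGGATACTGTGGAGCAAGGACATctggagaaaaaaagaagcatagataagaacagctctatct
AGAP2-AS1: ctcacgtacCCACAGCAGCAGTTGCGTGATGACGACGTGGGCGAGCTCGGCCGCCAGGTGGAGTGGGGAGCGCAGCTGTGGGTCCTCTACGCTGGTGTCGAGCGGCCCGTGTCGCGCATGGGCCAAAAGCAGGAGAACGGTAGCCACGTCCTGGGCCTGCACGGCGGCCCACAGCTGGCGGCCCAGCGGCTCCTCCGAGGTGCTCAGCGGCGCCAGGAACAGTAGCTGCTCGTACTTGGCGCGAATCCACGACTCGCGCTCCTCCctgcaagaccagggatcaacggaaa
A read of either strand from the capital stretches could be given to either gene of the pair if strand was not used. Promoter windows can overlap as well, as shown by DLG1-AS1 and DLG1, whose starts face away from each other. Their exons overlap too, with 14.2% of the DLG1-AS1 exonic bases opposite exons of DLG1. The windows run from 250 bases before to 50 bases after each start (RefSeq, GRCh38.p14), at chr3:197297997-197298296 on the plus strand for DLG1-AS1 and chr3:197298086-197298385 on the minus strand for DLG1. The capitals mark the 211 bases that both windows share, read from opposite strands.
DLG1-AS1: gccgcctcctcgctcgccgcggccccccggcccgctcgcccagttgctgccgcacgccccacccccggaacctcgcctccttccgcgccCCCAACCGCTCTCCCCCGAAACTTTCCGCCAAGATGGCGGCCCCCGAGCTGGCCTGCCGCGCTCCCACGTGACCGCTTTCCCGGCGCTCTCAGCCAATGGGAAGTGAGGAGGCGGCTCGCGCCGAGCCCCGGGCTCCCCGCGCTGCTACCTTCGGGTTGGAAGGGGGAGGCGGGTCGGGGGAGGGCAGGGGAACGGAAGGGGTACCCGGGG
DLG1: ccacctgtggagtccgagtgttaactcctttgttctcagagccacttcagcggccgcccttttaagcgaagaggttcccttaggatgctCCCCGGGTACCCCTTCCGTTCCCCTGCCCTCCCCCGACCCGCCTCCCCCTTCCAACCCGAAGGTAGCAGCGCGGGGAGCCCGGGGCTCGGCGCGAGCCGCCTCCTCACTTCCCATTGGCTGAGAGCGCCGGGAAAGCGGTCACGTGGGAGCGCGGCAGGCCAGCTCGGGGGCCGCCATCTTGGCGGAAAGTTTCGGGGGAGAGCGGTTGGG
Each of the windows holds 1 match to the CCAAT box (letters CCAAT, either strand), and it is the same site, within the shared bases. The letters were present in 35.7% of all 27305 promoter windows and in 54 of 162 member windows (33.3%). The letters GGGCGG, those of the GC box, on either strand occurred in 51.9% of member windows and 44.6% of all windows, and the median GC content was 64.5% in member windows and 58.3% in all windows. Of the members with a window, 24 shared bases with the window of their sense gene. In these 24, the median GC content was 71.7% and 16 held GGGCGG.

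The data were deposited as log2 of RPKM, reads per kilobase of transcript scaled to depth, and are given here as RPKM. No deposited value was below 0. A listing of 0 can therefore stand for a level up to 1 RPKM, for an absence of reads, or for a gene left out of the counting. TPT1, an abundantly expressed gene in most cells, was listed at 0 in both libraries beside TPT1-AS1 at 16.0 RPKM (RHCG) and 16.7 RPKM (mock). The scaling corresponded to about 22.1 reads in the RHCG library and 18.9 reads in the mock library for a 1 kb transcript at 1 RPKM. RHCG itself was at 413 RPKM in the RHCG library and listed at 0 in the mock library. Of 10 squamous epithelial markers, 8 were listed in each library, with KRT5 and PKP1 at 0 in both, and their summed level was 415 RPKM in the RHCG library and 782 RPKM in the mock library. Of 11 markers of leukocytes, fibroblasts and endothelial cells, CD68 and COL1A1 were listed in each library (summed levels 8.89 and 1.44 RPKM in the RHCG library, 15.4 and 1.19 RPKM in the mock library), the 3 endothelial markers PECAM1, VWF and CDH5 were at 0, and any part of these differences in the results was not tested.

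Antisense genes were seldom listed and mostly low. In such bulk libraries, fewer cells with an RNA and less of it per cell cannot be told apart. Of the 1135 antisense genes with a row, 17.9% were listed, against 59.7% of protein-coding genes, 5.37% of LINC genes (intergenic non-coding RNAs) and 66.7% of the 24 SNHG genes (hosts of small nucleolar RNAs). The median level where listed was 2.17 RPKM in the RHCG library and 2.17 RPKM in the mock library, and 165 of the 203 members (81.3%) were under 5 RPKM in both. Protein-coding genes had medians of 11.0 RPKM (RHCG) and 10.1 RPKM (mock). In 151 members both libraries were above 0, 24 were listed in the RHCG library alone and 28 in the mock library alone. Of those 52, 46 were under 2 RPKM where listed. The members nearest the edge of the rule were GSN-AS1, at 1.01 RPKM in the RHCG library and 1.02 in the mock library, and MIA2-AS1, at 1.02 RPKM in the RHCG library and listed at 0 in the mock library; the 932 antisense genes outside it were listed at 0 in both.

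**Figure D1:**
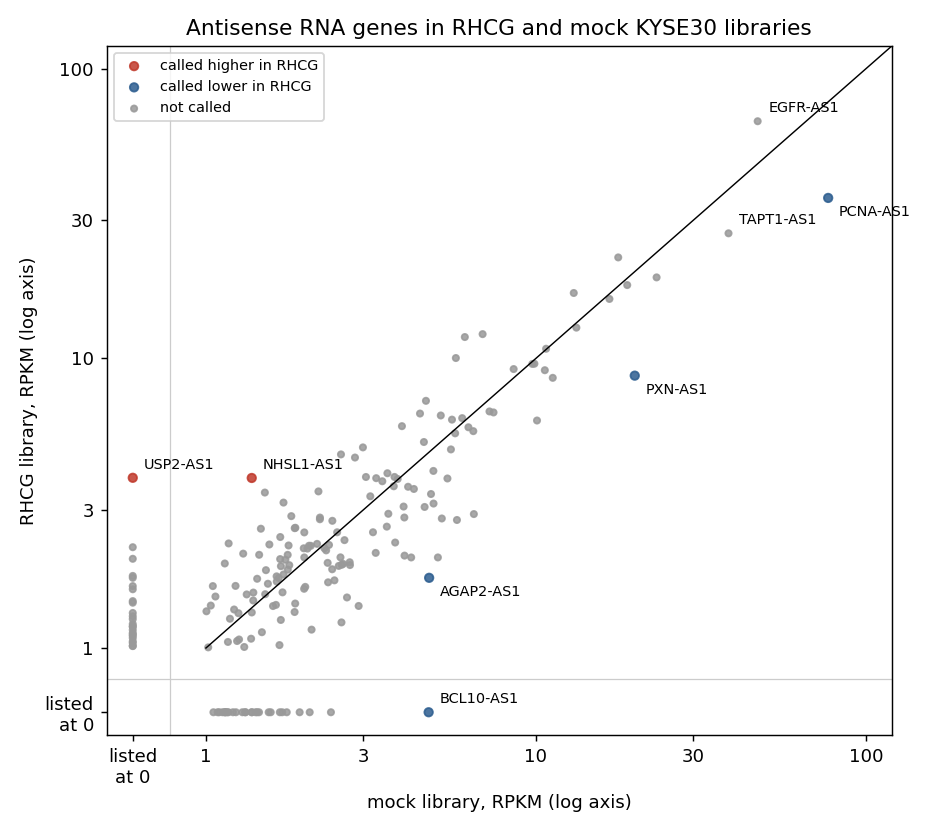
RPKM of the 203 antisense genes in the RHCG library (vertical) against the mock library (horizontal), both on log axes, with genes listed at 0 in a separate strip; each point is 1 gene, and the diagonal marks equal values. Most points lie near the line, between 1 and 5 RPKM in both libraries, and the 6 called genes, 2 higher and 4 lower in the RHCG library, stand away from it.

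A gene was called higher when log2((RHCG + 1)/(mock + 1)) in RPKM was 1 or more and lower when it was -1 or less, with genes listed at 0 set to 1 RPKM. By this rule 2 of 203 antisense genes were higher (0.985%), where 2.74% of all listed genes were, and 4 were lower (1.97%), where 3.3% of all listed genes were; in either direction it was 2.96% of members and 6.04% of all listed genes. The median log2 ratio of RHCG over mock was -0.03, with 100 members above 0 and 103 below, and that of all listed genes was -0.01. The SD of the log2 ratios was 0.39 over members and 0.54 over all listed genes, and the value of 1 RPKM added to each level draws the ratios of low genes towards 0. LINC genes, which are as low, had a median of -0.05 and an SD of 0.33, with 0 of 68 called in either direction by this fold rule, while 2 of 16 SNHG genes were higher and 1 was lower. As plain ratios with nothing added, 2 of the 151 members above 0 in both libraries were at least 2-fold higher (4.25% of all such genes) and 9 at least 2-fold lower (5.04%).

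The 4 antisense genes called lower were those of PCNA, PXN, AGAP2 and BCL10. PCNA-AS1, opposite the gene of the sliding clamp of DNA replication, was at 35.8 RPKM in the RHCG library and 76.9 RPKM in the mock library (Entrez gene 100302739, chromosome 20, log2 ratio -1.08). PCNA itself was at 39.0 RPKM in the RHCG library and 78.6 RPKM in the mock library, a log2 ratio of -0.99. Both rows thus had nearly the same level and the same ratio; in RefSeq the PCNA-AS1 gene lies inside the span of PCNA, and how far the rows share reads was not tested. PXN-AS1, opposite the gene of the focal adhesion protein paxillin, was at 8.72 RPKM in the RHCG library and 19.9 RPKM in the mock library (chromosome 12, log2 ratio -1.11, plain ratio 0.44 with an approximate 95% counting interval of 0.39 to 0.49). PXN lay in the same direction, at 149 RPKM (RHCG) and 251 RPKM (mock) (log2 ratio -0.75), and 38.6% of the exonic bases of PXN-AS1 lie opposite exons of PXN.

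AGAP2-AS1 was at 1.75 RPKM in the RHCG library and 4.75 RPKM in the mock library (log2 ratio -1.07, plain ratio 0.37, interval 0.27 to 0.51). AGAP2, a GTPase-activating protein of Arf proteins, was listed at 0 in both libraries although 57.7% of the AGAP2-AS1 exonic bases lie opposite its exons, as in the stretch printed for this gene. BCL10-AS1 was listed at 0 in the RHCG library and was at 4.73 RPKM in the mock library. Its log2 ratio was -1.52 with the 0 set to 1 RPKM and -2.52 with it kept at 0 RPKM. The size of this ratio is thus not fixed by the data. No exonic length was available for BCL10-AS1, so it has no counting interval, and its exons were not compared with those of BCL10. BCL10, an adaptor that links antigen and other receptors to NF-kB signalling, lay the other way, at 14.3 RPKM in the RHCG library and 9.63 RPKM in the mock library (log2 ratio 0.52). With the median shift of the 51 nearest protein-coding genes removed, PXN-AS1 (-0.73) and AGAP2-AS1 (-0.59), both on chromosome 12, no longer passed, while PCNA-AS1 did (-1.30).

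The 2 antisense genes called higher were USP2-AS1 and NHSL1-AS1. USP2-AS1 was at 3.87 RPKM in the RHCG library and listed at 0 in the mock library. USP2, a ubiquitin-specific protease gene that starts on the other strand within 1 kb, was at 1.39 RPKM in the RHCG library and also listed at 0 in the mock library. NHSL1-AS1 was at 3.87 RPKM in the RHCG library and 1.38 RPKM in the mock library, a log2 ratio of 1.03 and a plain ratio of 2.81 with an approximate counting interval of 1.86 to 4.29. NHSL1, a relative of the Nance-Horan syndrome gene, was at 8.20 RPKM (RHCG) and 6.48 RPKM (mock) (log2 ratio 0.30). Both calls were lost after subtraction of the neighbour shift (0.99 and 0.90). The USP2-AS1 log2 ratio was 1.28 with the 0 set to 1 RPKM and 2.28 with it kept at 0 RPKM, so its size is not fixed by the data.

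**Figure D2:**
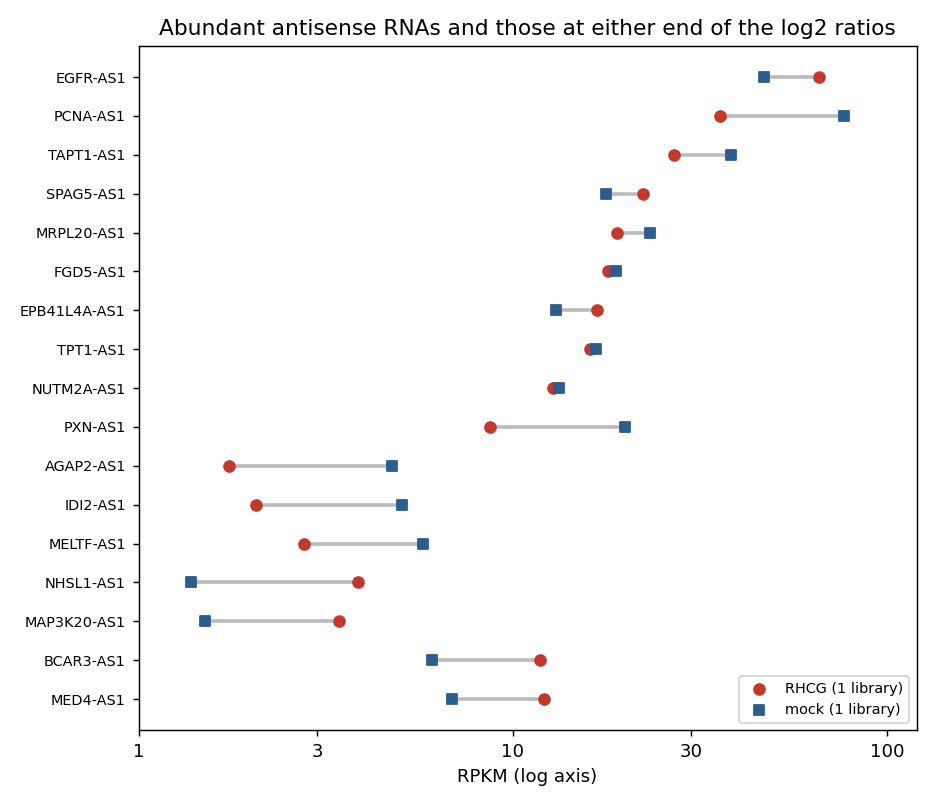
RPKM (log axis) of 17 antisense genes in the RHCG library (circles) and the mock library (squares), 1 value per library; the upper 10 are the most abundant of all members and the lower 7 lie at the ends of the log2 ratios. PCNA-AS1 at 35.8 RPKM (RHCG) and 76.9 RPKM (mock) and PXN-AS1 at 8.72 RPKM (RHCG) and 19.9 RPKM (mock) have the widest gaps among the abundant genes, while FGD5-AS1, TPT1-AS1 and NUTM2A-AS1 nearly coincide.

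Other antisense genes at the low end did not pass 2-fold on this scale. IDI2-AS1 was at 2.05 RPKM in the RHCG library and 5.05 RPKM in the mock library (log2 ratio -0.99). Its sense gene by name, IDI2, lay the other way, at 5.76 RPKM (RHCG) and 3.59 RPKM (mock). IDI1, the neighbouring isopentenyl diphosphate isomerase gene of the isoprenoid pathway, lies opposite 50.4% of the IDI2-AS1 exonic bases and was at 19.1 RPKM (RHCG) and 32.2 RPKM (mock) (log2 ratio -0.73). IDI2 lies opposite 7.29% of them, so the named sense gene was not the one with the longer exon overlap here. MELTF-AS1 was at 2.77 RPKM (RHCG) and 5.77 RPKM (mock) (-0.84), beside the melanotransferrin gene MELTF at 5.44 RPKM (RHCG) and 5.94 RPKM (mock), and passed after subtraction of the neighbour shift (-1.13). The ratios of SMARCA5-AS1 (-0.76), ADD3-AS1 (-0.70), AP4B1-AS1 (-0.70) and OGFR-AS1 (-0.70) were also among the 10 lowest of those above 0 in both libraries. The sense genes SMARCA5 (-0.34) and OGFR (-0.18) lay below 0, ADD3 (0.41) lay above, and AP4B1 was listed at 0 in both libraries. MRGBP lies opposite 67.8% of the OGFR-AS1 exonic bases and was at 49.9 RPKM (RHCG) and 53.3 RPKM (mock) (-0.09).

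At the high end after NHSL1-AS1 stood BCAR3-AS1, at 11.9 RPKM in the RHCG library and 6.09 RPKM in the mock library (log2 ratio 0.86). BCAR3, an adaptor of integrin signalling, lay the same way, at 59.3 RPKM (RHCG) and 35.4 RPKM (mock) (0.73). MAP3K20-AS1 was at 3.44 RPKM (RHCG) and 1.51 RPKM (mock) (0.82), and MAP3K20, the stress kinase also known as ZAK, was called higher, at 10.04 RPKM (RHCG) and 3.58 RPKM (mock). MED4-AS1 was at 12.1 RPKM (RHCG) and 6.90 RPKM (mock) (0.73); 56.6% of its exonic bases lie opposite exons of MED4, a Mediator subunit gene, which was at 6.31 RPKM (RHCG) and 4.88 RPKM (mock) (0.31). SLC38A4-AS1 was at 10.03 RPKM (RHCG) and 5.72 RPKM (mock) while SLC38A4, an amino acid transporter gene, was listed at 0 in both libraries. CCDC18-AS1 (0.67), DLG1-AS1 (0.62), TOB1-AS1 (0.60), OBI1-AS1 (0.57) and NINJ2-AS1 (0.54) followed. Of their sense genes, CCDC18 (-0.55) and TOB1 (-0.10) lay the other way. DLG1 (1.20), OBI1 (0.64) and NINJ2 (0.19, listed at 0 in the mock library) lay the same way.

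Apart from PCNA-AS1 and PXN-AS1, the 10 most abundant antisense genes lay within 1.5-fold on this scale. EGFR-AS1 was at 65.9 RPKM in the RHCG library and 47.0 RPKM in the mock library (log2 ratio 0.48), beside EGFR, the epidermal growth factor receptor gene, at 907 RPKM (RHCG) and 543 RPKM (mock) (0.74). Exons of EGFR lie opposite 6.63% of the EGFR-AS1 exonic bases. How far the EGFR-AS1 row holds reads of the far higher EGFR was not tested. TAPT1-AS1 was at 27.0 RPKM (RHCG) and 38.4 RPKM (mock), above its sense gene TAPT1 at 2.05 RPKM (RHCG) and 2.48 RPKM (mock), and shares no exon bases with it. SPAG5-AS1 was at 22.3 RPKM (RHCG) and 17.8 RPKM (mock) (0.31), while SPAG5, a mitotic spindle gene, was at 17.8 RPKM (RHCG) and 29.9 RPKM (mock) (-0.72). Exons of SPAG5 lie opposite 10.01% of the SPAG5-AS1 exonic bases and those of BLTP2 opposite 20.99%, and BLTP2 was at 76.4 RPKM (RHCG) and 57.7 RPKM (mock) (0.40). MRPL20-AS1 was at 19.05 RPKM (RHCG) and 23.2 RPKM (mock), EPB41L4A-AS1 at 16.8 RPKM (RHCG) and 13.03 RPKM (mock) and NUTM2A-AS1 at 12.8 RPKM (RHCG) and 13.3 RPKM (mock). FGD5-AS1, at 17.9 RPKM (RHCG) and 18.9 RPKM (mock), had a sense gene listed at 0 in both libraries. Counting intervals of the plain ratio included 1 for FGD5-AS1 (0.89 to 1.01), TPT1-AS1 (0.92 to 1.01) and NUTM2A-AS1 (0.90 to 1.03), and cover counting error only.

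Among 54 antisense RNAs named in cancer and developmental work, 42 were in the tables and 22 were listed. Of those 22, 1 was lower (PCNA-AS1) and 0 were higher by the fold rule, where 3.3% and 2.74% of all listed genes were. At such shares a list of 22 holds few calls or none. The median log2 ratio of the 22 was 0.07. OIP5-AS1, which binds microRNAs, was at 9.59 RPKM in the RHCG library and 9.90 RPKM in the mock library, and AFAP1-AS1, known from esophageal tumours, at 10.8 RPKM (RHCG) and 10.7 RPKM (mock). TMPO-AS1 was at 1.23 RPKM (RHCG) and 2.58 RPKM (mock) (-0.68) and VPS9D1-AS1 at 7.14 RPKM (RHCG) and 4.64 RPKM (mock) (0.53). PSMB8-AS1 was at 1.69 RPKM (RHCG) and 2.35 RPKM (mock) (-0.32) and THAP9-AS1 at 6.45 RPKM (RHCG) and 4.45 RPKM (mock) (0.45). HLA-F-AS1 was listed at 0 in the RHCG library and at 2.06 RPKM in the mock library, whereas ZEB1-AS1 was at 1.64 RPKM in the RHCG library and listed at 0 in the mock library. At the HOX clusters, 2 of 6 antisense genes in the tables were listed, HOXA-AS2 at 1.396 RPKM (RHCG) and 1.60 RPKM (mock) and HOXC-AS1 listed at 0 in the RHCG library and at 1.14 RPKM in the mock library. Of 9 members named after zinc finger protein genes 6 lay below 0, with a median of -0.24, and 0 passed 2-fold, near the 6.04% of all listed genes that did. ZNF143-AS1 (2.39 RPKM in the mock library), ZNF32-AS1, ZNF32-AS2 and ZSCAN16-AS1 were listed at 0 in the RHCG library. Their ratios could thus only lie below 0, and that of ZNF790-AS1, listed at 0 in the mock library, only above. The count of 6 is therefore partly set by the rule for members. ZNF32-AS1 and ZNF32-AS2 share their sense gene. Others listed at 0 in the mock library were PAN3-AS1, at 2.23 RPKM in the RHCG library, and ZBED3-AS1, at 2.03 RPKM; their sense genes PAN3 (6.71 RPKM (RHCG) and 3.20 RPKM (mock), log2 ratio 0.88) and ZBED3 (4.69 RPKM (RHCG) and 1.404 RPKM (mock), log2 ratio 1.24) lay the same way.

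Of the 203 members, 201 had a row for the sense gene, of which 26 were listed at 0 in both libraries, leaving 175 pairs with both genes listed. Antisense levels were mostly below sense levels. In the RHCG library 122 of 146 pairs listed there (83.6%) had the antisense gene lower, with a median ratio of sense over antisense of 3.13. In the mock library it was 131 of 152 pairs (86.2%), with a median of 3.57.

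**Figure D3:**
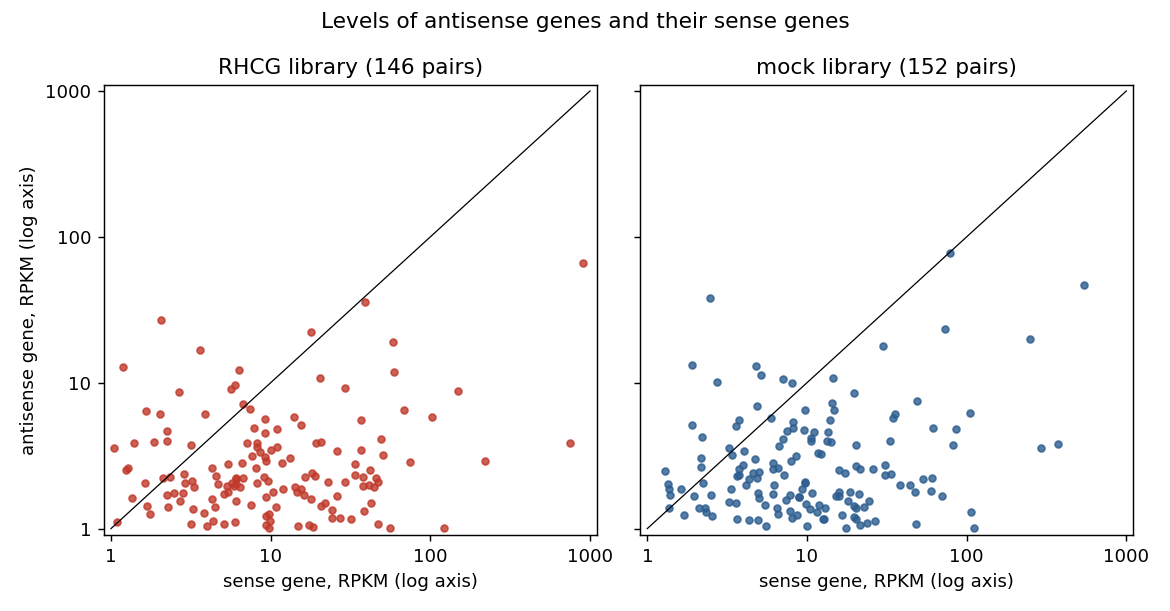
RPKM of each antisense gene (vertical) against its sense gene (horizontal) in the RHCG library (left, 146 pairs) and the mock library (right, 152 pairs), both axes log; each point is 1 pair listed in that library and the line marks equal levels. Most points lie below the line in both libraries, with 24 and 21 pairs above it.

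Log2 ratios of antisense and sense genes had the same sign in 107 of 175 pairs (61.1%), 53 with both above 0 and 54 with both below, and the median difference of antisense minus sense was 0.01. The Pearson correlation across these pairs was 0.29 and the Spearman correlation 0.31, as a description of pairs that share their libraries, their chromosome region and possibly reads. In the 143 pairs with overlapping exons 93 (65.0%) had the same sign, and in the 25 pairs with no shared exon bases 12 (48.0%) had. After subtraction of the neighbour shift, the Pearson correlation was 0.21. Of the 21 listed pairs whose promoter windows overlap 14 had the same sign.

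**Figure D4:**
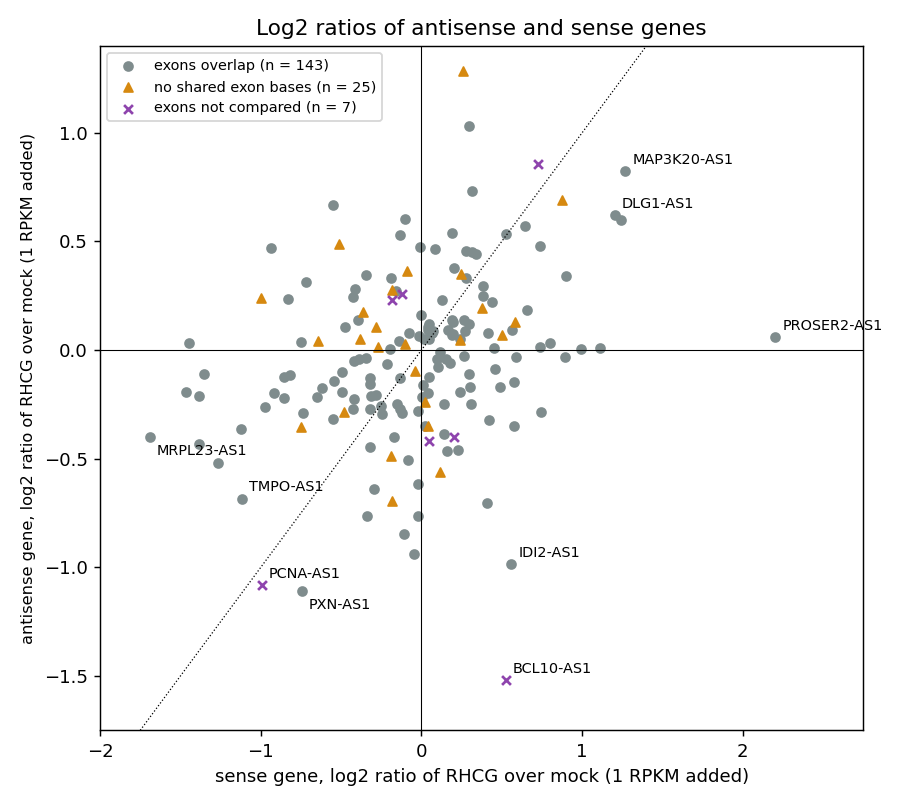
Log2 ratio of RHCG over mock of each antisense gene (vertical) against that of its sense gene (horizontal), with 1 RPKM added to each level, for 175 pairs marked by whether annotated exons overlap. The points scatter widely around 0; PCNA-AS1 lies near the dotted line of equal ratios, while BCL10-AS1 and IDI2-AS1 lie low with sense genes above 0.

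Sense genes were called higher in 5 members and lower in 9 (8 genes). Over the 174 listed sense genes this was 7.47%, near the 6.04% of all listed genes called. Among the 14 antisense genes of these pairs, 13 had the sign of the sense gene. Of these 14, 7 were listed in both libraries, and 6 of the 7 had that sign. All 14 pairs have overlapping exons, so both rows of a pair can hold the same reads. The overlap ran from 0.95% of the antisense exonic bases (PROSER2-AS1) to 54.4% (ZNF32-AS1). How far shared reads set the common sign was not tested. In 0 of the 14 was the antisense gene called as well, near the 2.96% of all members called. PROSER2, the highest sense ratio, was at 46.8 RPKM in the RHCG library and 9.37 RPKM in the mock library (2.20), beside PROSER2-AS1 at 1.08 RPKM in the RHCG library and listed at 0 in the mock library. DLG1, a scaffold protein of epithelial polarity, was at 50.2 RPKM (RHCG) and 21.3 RPKM (mock) (1.20), beside DLG1-AS1 at 3.18 RPKM (RHCG) and 1.72 RPKM (mock), plain ratio 1.85 with an interval of 1.34 to 2.61. MRPL23, a mitochondrial ribosomal protein gene, had the lowest sense ratio, at 25.9 RPKM (RHCG) and 86.0 RPKM (mock) (-1.69), beside MRPL23-AS1 at 3.40 RPKM (RHCG) and 4.81 RPKM (mock) (-0.40). TMPO, which encodes lamina-associated polypeptides, was at 9.34 RPKM (RHCG) and 21.4 RPKM (mock) (-1.12), and 21.2% of TMPO-AS1 exonic bases lie opposite its exons. The exception was CBR3-AS1, at 2.06 RPKM (RHCG) and 1.99 RPKM (mock) (0.03), whose sense gene CBR3, a carbonyl reductase gene, was at 1.64 RPKM (RHCG) and 6.19 RPKM (mock) (-1.44).

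The medians of antisense and protein-coding genes lay apart on some chromosomes. On chromosome 12, the 17 antisense genes had a median log2 ratio of 0.09, 11 of them above 0, where 602 listed protein-coding genes had a median of -0.21. On chromosome 13, the 8 antisense genes had a median of 0.14, 6 of them above 0, where 182 protein-coding genes had a median of 0.50. These are examples. Chromosome 5 (0.29 for antisense and -0.11 for protein-coding genes) and chromosome 20 (-0.35 and 0.01) also had gaps, while chromosome 10 (-0.05 and -0.04) had almost none. Each of these sets holds few antisense genes, the 1 RPKM added draws low genes towards 0, and the differences were not tested.

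Genes of the machinery that ends, degrades, edits or binds such transcripts are set beside the 6.04% of all listed genes that were called in either direction, a share at which lists this short hold few calls or none. Among 17 listed genes of the nuclear RNA exosome and its targeting complexes 0 passed 2-fold in either direction by the fold rule (median 0.05, range -0.54 to 0.53); EXOSC5 was at 52.3 RPKM (RHCG) and 48.2 RPKM (mock) and EXOSC2 at 34.0 RPKM (RHCG) and 37.6 RPKM (mock). Among 11 genes of Polycomb repressive complex 2, the histone methyltransferase complex that some antisense RNAs bind, 0 passed (median 0.06), with RBBP7 at 43.2 RPKM (RHCG) and 40.3 RPKM (mock) and PHF19 at 27.8 RPKM (RHCG) and 34.2 RPKM (mock). Among 14 Integrator subunits, which end short non-coding transcripts, 0 passed (median -0.06), with INTS1 at 65.8 RPKM (RHCG) and 98.3 RPKM (mock) and INTS11 at 69.5 RPKM (RHCG) and 75.2 RPKM (mock). Of 12 genes that edit, cut or bind double-stranded RNA, 1 was higher and 1 was lower. PRKRA, a partner of Dicer, was at 22.8 RPKM in the RHCG library and 8.42 RPKM in the mock library (1.34), and DHX9, an RNA helicase, was at 28.4 RPKM (RHCG) and 63.3 RPKM (mock) (-1.13).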

How the data were processed

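Total RNA depleted of ribosomal RNA was sequenced from 1 RHCG and 1 mock library with the Ion Total RNA-Seq kit, per the labels. The authors deposited a column headed RPKM whose values were log2 values with none below 0, and the submitters' processing notes name hg19 and bedtools 2.25.0; aligner, counting method and use of strand: not given in the sources used here. Each table had 40448 rows, of which 112 with a copy suffix were summed into 40392 Entrez genes, 38080 of them with a symbol from RefSeq or GENCODE. Zeros were raised to 1 RPKM, after which every listed gene met the mean filter of 1 RPKM. Members and lists were chosen with earlier results of these data known. The design was written for log2 RPKM, and that unit held. Its mean filter removed no listed gene here, although with zeros kept as 0 some members would fall below 1 RPKM. Named were the 10 highest and 10 lowest ratios above 0 in both libraries, called genes, the 10 most abundant, the 6 highest listed at 0 in 1 library, and list members; 1 of these is not reported here, and genes with called sense genes were added after values were seen. Arrangements came from GENCODE release 29 (GRCh38), over all transcripts of a gene, except 8 members placed by RefSeq spans and 3 not matched; 194 of 203 members had an exonic length. Depth was read from small RNA values: 37.0% of 173 values in the RHCG library and 24.2% of 182 in the mock library lay within 0.002 reads of a whole number. Approximate reads used GENCODE exonic length, which may differ from the authors', and gave exact (Clopper-Pearson) 95% intervals for counting error only. Tools were pandas 2.3.3, numpy 2.4.6, matplotlib 3.10.9 and scipy 1.17.1 under Python 3.11.15. The ratio rule was run on simulated data whose changes were placed only in genes with a mean above 5 RPKM and above 0 in both libraries. As 81.3% of members were under 5 RPKM in both libraries, the simulation does not show how the rule works for most of them.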

Additional observations from a re-analysis of the deposited data

How the results depend on the processing

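No paired analysis was possible because each group had a single library, which also barred leaving one out. The 2 higher and 4 lower antisense genes became 4 and 10 with 0.1 RPKM added, 25 and 31 with zeros kept at 0 RPKM, and 11 and 15 at 1.5-fold, where 11.3% and 11.5% of all genes passed; each loosens the rule by construction. With a mean of at least 5 RPKM (31 members) they were 0 and 2, where 3.30% and 3.42% of all such genes passed. The 18 pairs left had the same sign in 77.8%, a median difference of 0.065 and a Pearson correlation of 0.64. With genes above 0 in both libraries 1 was higher (2.72% of all such genes), the median was 0.00467 and the pair difference -0.054. That difference was -0.051 with zeros kept at 0 RPKM. With the neighbour shift removed 1 was higher (SLC38A4-AS1, 1.08) and 3 lower (PCNA-AS1, BCL10-AS1 and MELTF-AS1, the last -1.13 and newly called), and 4 of the 6 calls were lost. Pairs without exon overlap had the same sign in 48% and a median difference of 0.13. Settings chosen after seeing the data gave 9 lower, a median of 0.00653 and a difference of -0.042 for plain ratios, a median of 0.00467 and a difference of -0.072 with genes listed at 0 counted as 0 in the mean, and 1 higher and 2 lower where the counting interval also excluded 1, which genes listed at 0 or without an exonic length cannot meet. Except where an alternative's construction shows the cause, the cause was not tested. Both scalings and the choice of row left 2 and 4. Among single genes 520 values were counted as the same and 62 as moved, and no called value changed sign. Settings that only filter genes cannot change a ratio, and genes listed at 0 or without an exonic length had no counting interval. The 520 values therefore do not measure how firmly the ratios hold. At 1 to 5 RPKM, where most members lie, a lack of a call shows little.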
